A study of Oryctolagus cuniculus with 8 samples.

Results

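A set of 10 genes of blood vessel endothelium, the cell layer that lines vessels, was followed in sorted cells of the rabbit limbus, the rim between cornea and conjunctiva. They are VWF, SELP, ACKR1, AQP1, PECAM1, EMCN, TEK, CD34, CDH5 and KDR, 10 of the 20922 gene entries of the deposited table, and each was found by its exact name. They were chosen by their exon reads, abundant in the side population (SP) and scarce in the other cells (NSP), so their SP and NSP levels are given here as a description, with no test. SP cells are those that pump out the DNA dye Hoechst and therefore stay dim in flow cytometry, and NSP cells are those outside that gate; both are labelled as epithelial. The 8 Ion Proton libraries of total RNA comprise 4 of SP and 4 of NSP cells from New Zealand white rabbits, whose labelled weight ranges start at 2.5 kg and end between 3.0 and 3.7 kg. No agent besides the dye and no genetic change is labelled for either group, and age and sex are not labelled. The labels do not say whether libraries came from separate or pooled animals, so a p-value here speaks of the spread among these libraries alone, and that spread may be technical.

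The 10 genes cover separate tasks of the vessel lining. VWF encodes the clotting glycoprotein that endothelial cells store in Weibel-Palade bodies, rod-shaped granules whose membrane also carries the rolling receptor P-selectin (SELP), and ACKR1 encodes a chemokine-binding receptor of venules and red cells. KDR (VEGF receptor 2) and TEK (the angiopoietin receptor) receive growth and stability signals, CDH5 (VE-cadherin) and PECAM1 join neighbouring cells, CD34 and EMCN encode sialomucins of the cell surface, and AQP1 encodes a water channel. The healthy cornea has no blood vessels, while the limbus and the adjoining conjunctiva carry a vascular network. Several of the genes are also active elsewhere, among them VWF, SELP and PECAM1 in platelets and their precursors, PECAM1 in leukocytes, CD34 in blood progenitors and some stromal cells, and ACKR1 and AQP1 in red cells.

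The SP libraries held between 15553295 and 18931836 exon reads and the NSP libraries between 20445565 and 23529101. Levels are CPM, exon reads per 1000000 of the TMM-scaled library total, and libraries are numbered 1 to 4 within a group in the order of the table's columns. The SP libraries differed strongly among themselves. Summed over the 13 measured genes of an epithelial list (keratins, desmosomal genes and limbal factors), they stood at 8084, 3628, 926.3 and 5610 CPM in SP 1 to 4, against 25866 to 48626 CPM in NSP. A leukocyte list of 15 measured genes summed to 2078, 2927, 4699 and 1665 CPM in SP 1 to 4, against 39.3 to 50.8 CPM in NSP. SP 1 thus had the highest epithelial sum of the SP libraries and SP 3 the highest leukocyte sum.

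Together the 10 vessel genes held 593652 exon reads in the SP libraries and 47, 36, 47 and 14 in NSP 1 to 4. Their summed level was 2089, 6647, 8078 and 19090 CPM in SP 1 to 4, and 2.12, 1.67, 2.35 and 0.68 CPM in NSP 1 to 4. The share of all exon reads was 0.238%, 0.684%, 0.8% and 1.77% in the SP libraries. The lowest SP library was therefore far above every NSP library, and the SP libraries themselves spread widely. Bulk libraries cannot tell more cells of a type from more RNA per cell, so these levels do not give a number of endothelial cells. All 10 genes passed the filter on low reads, and they did so through the SP libraries, since no NSP level exceeded 1.60 CPM.

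**Figure D1:**
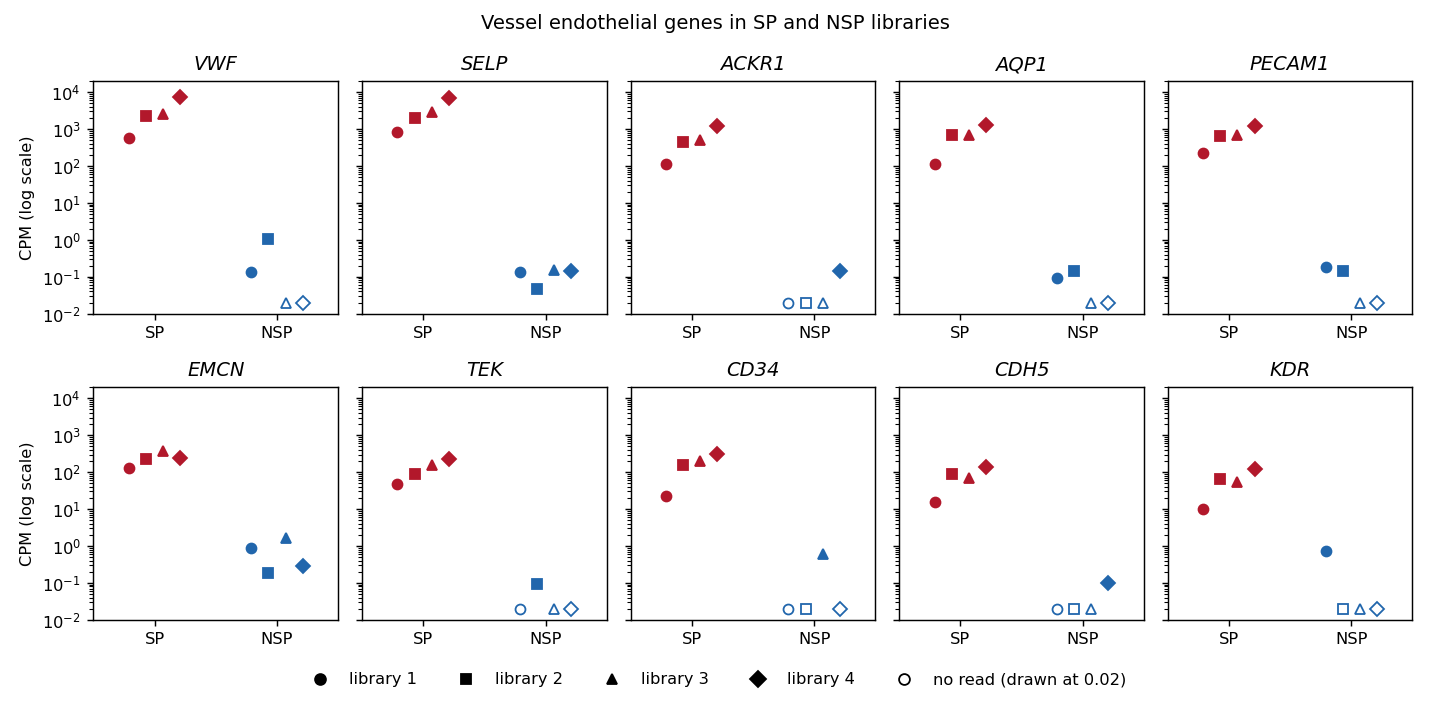
Level of each of the 10 genes in every library, in CPM on a log scale, with SP libraries in red on the left and NSP libraries in blue on the right of each panel. Open symbols mark libraries with no read, drawn at 0.02; in every panel all 4 SP libraries lie above all 4 NSP libraries.

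VWF and SELP, the genes of the storage granule, had the most exon reads of the 10 in SP and a handful in NSP. VWF was at 577, 2276, 2519 and 7524 CPM in SP 1 to 4, against 0.136, 1.07, 0 and 0 CPM in NSP 1 to 4. SELP, the receptor on which leukocytes roll, was at 841.8, 1956, 2850 and 6892 CPM in SP, against 0.136, 0.046, 0.150 and 0.146 CPM in NSP. Per kilobase of exon, SELP ranked 98 and VWF 244 among the 10004 tested genes in SP. The ratio of SP to NSP levels was 9592 for VWF (95% counting interval 6546 to 14684) and 24445 for SELP (13292 to 50977). These intervals, like all others on reads here, are exact binomial ones and cover counting error only. Of the 26 NSP reads of VWF most lay in NSP 2, and without that library the log2 ratio of VWF was 15.92, against 13.23 with it. The NSP reads of SELP were few in every library and absent from none.

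ACKR1, which binds and clears chemokines at venules, was at 115.3, 455.7, 495.2 and 1190 CPM in SP 1 to 4 and had 3 reads in all NSP libraries together. All 3 lay in NSP 4 (0.146 CPM). Its ratio was 14776 (5056 to 71651). A library with no read allows a level of up to 0.136 to 0.15 CPM in NSP, the value of 3 reads, so the 3 NSP libraries without an ACKR1 read do not exclude a trace. The water channel gene AQP1 was at 111.8, 679.2, 680 and 1251 CPM in SP, against 0.090, 0.139, 0 and 0 CPM in NSP, a ratio of 10905 (4673 to 33588). For both genes SP 2 and SP 3 were close to each other, SP 1 was low and SP 4 was high.

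Genes of cell contact showed the same division. PECAM1, an adhesion molecule at endothelial borders, was at 220.1, 654.3, 671.1 and 1192 CPM in SP 1 to 4, against 0.181, 0.139, 0 and 0 CPM in NSP. Its ratio was 7875 (3822 to 19587). CDH5, the cadherin of endothelial adherens junctions, was at 15.6, 89.6, 70.2 and 141.3 CPM in SP, and 2 reads in NSP 4 (0.097 CPM) were its only NSP reads. Its ratio of 3187 therefore had a wide interval (881.7 to 26320). SP 1 held the lowest level of both genes and SP 4 the highest.

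The genes of the signalling receptors were read in few NSP libraries. TEK was at 48.04, 90.3, 153.5 and 228.4 CPM in SP 1 to 4, with 2 reads in NSP 2 (0.093 CPM) and none in the other NSP libraries, a ratio of 5220 (1445 to 43109). KDR was at 10.4, 64.3, 52.6 and 121.3 CPM in SP, against 0.723 CPM in NSP 1 and no read in NSP 2 to 4. Its ratio was 308.9 (190 to 541), the smallest of the 10, and all 16 NSP reads of KDR came from NSP 1. Without NSP 1 only a bound against 3 reads can be given, a log2 ratio of at least 10.11, against 8.27 with it.

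The sialomucin genes differed from each other. CD34 was at 22.9, 152.8, 201.4 and 312.1 CPM in SP 1 to 4, and its 12 NSP reads all lay in NSP 3 (0.601 CPM), for a ratio of 1151 (658.8 to 2229). Without NSP 3 its log2 ratio was at least 11.78, against 10.17 with it. EMCN, which marks venous and capillary endothelium, was at 126.4, 229.2, 385.2 and 237.4 CPM in SP, against 0.859, 0.186, 1.60 and 0.292 CPM in NSP. It was the member with the most NSP reads, 61, and besides SELP the only one with reads in every NSP library. Its ratio was 338.6 (263.5 to 442.8), and its log2 ratio of 8.40 became 9.09 without NSP 3.

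In the pooled reads, the trace in NSP was not the same fraction of the SP level for every gene. Over the 10 genes together the NSP level was 2.05 per 10000 of the SP level. It was 0.409 per 10000 for SELP (95% counting interval 0.196 to 0.752), 1.04 for VWF (0.681 to 1.53) and 1.27 for PECAM1 (0.511 to 2.62). It was 29.5 per 10000 for EMCN (22.6 to 38) and 32.4 for KDR (18.5 to 52.6). The intervals of EMCN and KDR lay above those of the other members, but they leave out the spread among libraries. EMCN made up 2.93% of the members' reads in SP and 42.4% of those in NSP, and SELP 34.7% in SP and 6.94% in NSP. The NSP reads of KDR came from a single library, NSP 1, whereas those of EMCN were spread over all 4. Without NSP 1 the log2 ratio of KDR was at least 10.11, so its place above the other members rests on that library.

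**Figure D2:**
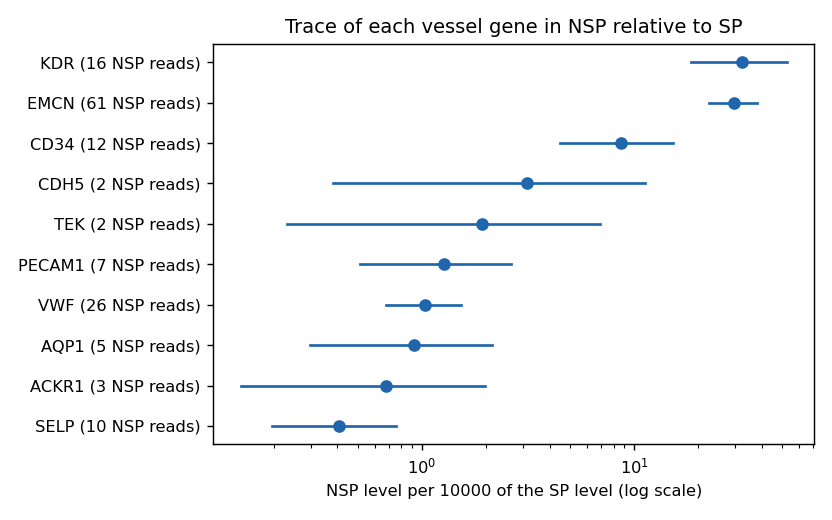
NSP level of each gene per 10000 of its SP level on a log scale, with exact 95% counting intervals from the pooled reads of 4 libraries per group. KDR (32.4) and EMCN (29.5) lie to the right of the other 8 genes, and SELP (0.409) is farthest to the left.

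Across the SP libraries the members moved over a wide range. The highest SP library exceeded the lowest 13-fold for VWF, 13.7-fold for CD34, 11.7-fold for KDR and 11.2-fold for AQP1, but 3.05-fold for EMCN, with a median of 9.69-fold over the 10 genes. For comparison, the 6847 genes with a mean of at least 10 CPM in SP had a median of 2.27-fold with quartiles of 1.71 and 3.67. SP 1 was the lowest library for 10 of 10 members, and 32.2% of those 6847 genes were lowest there. SP 4 was the highest for 9 of 10, and 35.1% of the genes were highest there; EMCN was highest in SP 3. Without SP 1 the median spread of the members was 2.18-fold (lowest 1.68, highest 3.52), against 1.95-fold over those genes with a read in each of these libraries (quartiles 1.51 and 2.89). Without SP 4 it was 4.33-fold (lowest 3.05, highest 8.81), against 1.66-fold (quartiles 1.37 and 2.29).

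**Figure D3:**
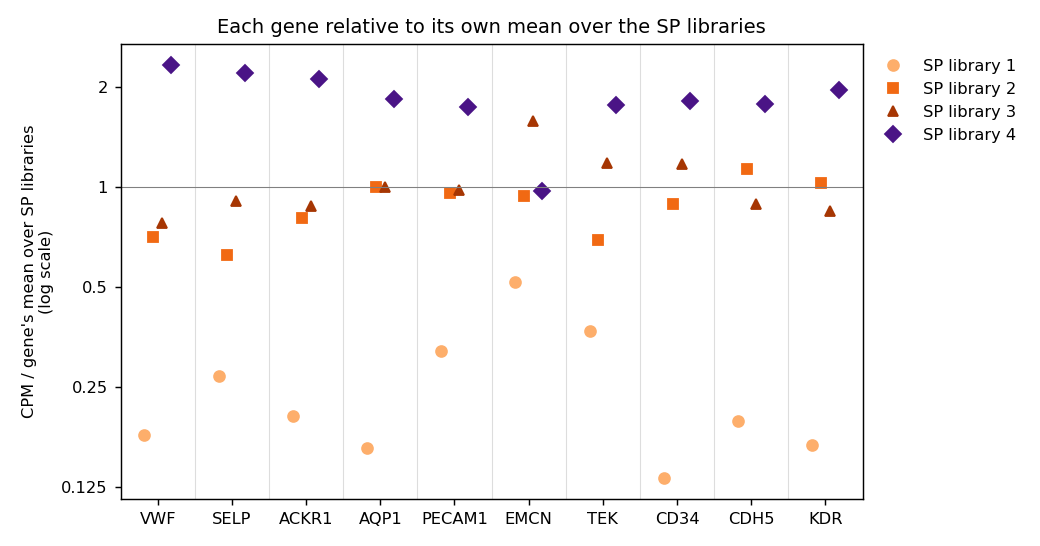
CPM of each gene in the 4 SP libraries divided by the gene's own mean over them, on a log scale; each symbol is a library. SP 1 is lowest for all 10 genes, from 0.133 for CD34 to 0.517 for EMCN, and SP 4 is highest for all but EMCN.

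The members did not keep fixed proportions. Set against PECAM1 per kilobase of exon in the same library, VWF stood at 1.02, 1.36, 1.47 and 2.47 in SP 1 to 4, and EMCN at 0.992, 0.605, 0.992 and 0.344. In SP 4, the library with the most VWF, EMCN was thus at its lowest relative to PECAM1. CD34 stood at 0.132 of PECAM1 in SP 1 and between 0.297 and 0.382 in the other SP libraries, while TEK stayed between 0.11 and 0.182. The epithelial and leukocyte sums given above were not ordered like the members: SP 4, highest for 9 members, had the second highest epithelial sum and the lowest leukocyte sum. SP 3, where EMCN peaked, had the highest leukocyte sum. Their part in these differences was not tested.

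Per kilobase of exon, the order of the mean SP levels was SELP, AQP1, VWF, ACKR1, PECAM1, EMCN, CD34, CDH5, TEK and KDR. SELP averaged 957 ± 804.7 CPM per kilobase (SD, n = 4), AQP1 442.2 ± 302.3, VWF 374.3 ± 347.6 and KDR, the lowest, 15.3 ± 11.2. The ranges of neighbours in this order overlapped throughout. Within single libraries, SELP exceeded AQP1, VWF exceeded ACKR1, PECAM1 exceeded EMCN, EMCN exceeded CD34, CD34 exceeded CDH5 and TEK exceeded KDR in 4 of 4 SP libraries, but the smallest ratio was 1.01 for PECAM1 over EMCN and 1.03 for EMCN over CD34. AQP1 exceeded VWF in 3 of 4, CDH5 exceeded TEK in 2, and ACKR1 exceeded PECAM1 in 1, so these neighbours did not keep the same order in every library. PECAM1 and EMCN, and EMCN and CD34, kept their order in 4 of 4, but by a small margin in at least 1. Among the 10004 tested genes KDR ranked 3876 by level per kilobase in SP.

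Other endothelial genes were described with a list of 40 markers outside the 10, of which 30 were measured and tested. The list was chosen with earlier results of these data known, so it is no independent check. Genes with almost no NSP read, such as ELTD1, MYCT1, CLEC14A, ARHGEF15 and ROBO4, passed the filter on low reads through the SP libraries. In SP 29 rose and 0 fell, with a median log2 change of 7.65 (5.77 by limma-trend). Of all 10004 tested genes 30.8% were called (17.5% higher and 13.3% lower in SP) at a Benjamini-Hochberg adjusted p of 0.05 by limma-voom, the test behind every adjusted p here, and their median log2 change was 0.11. Every list count below is to be read beside these shares. The list summed to 1251, 3362, 3917 and 7890 CPM in SP 1 to 4, against 291.6 to 390.8 CPM in NSP. Most of each NSP sum came from SOX7 (160.3, 166.1, 152.5 and 171.5 CPM in NSP 1 to 4), ELK3 and ETS1. In 28 of the 30 every SP library lay above every NSP library, which held for 18.6% of all tested genes (32.8% had groups that did not overlap in either direction). Like the members, 29 of the 30 were lowest in SP 1 and 25 were highest in SP 4.

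The list genes with the smallest p cover vessel receptors and a transcription factor. ELTD1, an adhesion receptor of endothelium, was at 29.2, 66.1, 93.1 and 54.3 CPM in SP and had no NSP read, so its level was at least 1718-fold higher, against 3 reads over the NSP libraries. CALCRL, the adrenomedullin receptor gene, was at 47.0, 101.1, 143.5 and 77.8 CPM in SP, against 2.49, 1.86, 1.60 and 1.94 CPM in NSP (log2 change of SP over NSP 5.43 ± 0.63, with its standard error as in all such pairs below; adjusted p = 0.000314). The homeobox factor gene HHEX had a log2 change of 11.15 ± 1.44 (adjusted p = 0.000453) and the adhesion receptor gene GPR116 one of 6.79 ± 0.88 (adjusted p = 0.000473). ELTD1, CALCRL and HHEX, like EMCN, were highest in SP 3, the library with the highest leukocyte sum. The part of leukocytes in the levels of the endothelial list was not tested. The 1 gene without a call was SOX7, an endothelial transcription factor gene named after its values were seen, at 57.2, 129.3, 118.8 and 306.6 CPM in SP, against 160.3, 166.1, 152.5 and 171.5 CPM in NSP (log2 change -0.35 ± 0.41, adjusted p = 0.556). CLDN5, ERG and EGFL7 had no usable entry.

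The call of the list depended in part on single libraries. Leaving out SP 1 left 28 genes higher, and leaving out SP 4 left 27 higher and SOX7 lower (adjusted p = 0.0292). Leaving out NSP 2 or NSP 3 left 23 higher, the smallest number over the 8 libraries left out in turn.

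Markers of vessel segments gave a mixed picture. Of 6 measured venous genes 4 rose and 0 fell (median log2 change 1.68). VCAM1, a leukocyte adhesion molecule of activated endothelium, was at 13.8, 17.5, 42.7 and 26.9 CPM in SP, against 3 reads in NSP (ratio 704.1, 240.5 to 3417). NRP2, a co-receptor for VEGF and semaphorins, had a log2 change of 1.90 ± 0.47 (adjusted p = 0.0118). E-selectin (SELE), which endothelium makes on inflammatory activation, was at 1.67, 66.6, 28.8 and 68.9 CPM in SP with no NSP read, at least 1128-fold higher, but its call was lost when any 1 NSP library was left out (adjusted p up to 0.093). GPR126 rose by 1.06 ± 0.31 (adjusted p = 0.0255) and lost its call in 4 settings, among them upper-quartile scaling (adjusted p up to 0.115). EPHB4, the venous ephrin receptor, had a log2 change of -0.03 ± 0.41 (adjusted p = 0.963), and NR2F2 and ICAM1 had no usable entry. Without SP 1 the rises were 5, with APLNR, the apelin receptor, added (adjusted p = 0.00806), and without NSP 1 or NSP 4 they were 2.

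Of 8 tested arterial genes 2 rose and 1 fell (median log2 change 0.71). The rises were SOX17, an arterial transcription factor gene, with a log2 change of 5.25 ± 0.98 (adjusted p = 0.00294), and DLL4, a Notch ligand of arteries and sprouting tips, with 5.33 ± 1.04 (adjusted p = 0.00364). The netrin receptor gene UNC5B fell by 1.09 on the log2 scale (adjusted p = 0.0235; not called without SP 1, without SP 2 or without NSP 2). EFNB2, the arterial ephrin, stood at 32.3, 35.9, 40.0 and 36.9 CPM in SP, against 46.4, 33.3, 28.99 and 20.1 CPM in NSP (adjusted p = 0.589). Of 5 tested capillary genes (median 2.73) 2 rose, RGCC (log2 change 4.15 ± 0.33, adjusted p = 8.73e-05) and ITGA1 (3.81 ± 0.69, adjusted p = 0.00263), both of which leukocytes can also express. FABP5, a fatty acid binding protein gene of capillaries and epithelia, fell by 1.43 (adjusted p = 0.0379; not called without SP 2, NSP 1 or NSP 4), and CA4, a defining capillary gene, had no read in any library.

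Genes of lymphatic endothelium, the other vessel type of the limbus, were scarce. Of 7 tested (median log2 change 0.56), 0 rose and 1 fell, the semaphorin gene SEMA3D, with 2 reads in SP and 387 in NSP (ratio 0.00613, 0.00074 to 0.0223; adjusted p = 0.000859). PROX1, the lymphatic master regulator, was at 0.755, 8.22, 9.02 and 9.65 CPM in SP, against 0.045, 0, 0.751 and 1.51 CPM in NSP (adjusted p = 0.0543). LYVE1, a hyaluronan receptor of lymphatic vessels, was at 0, 3.36, 1.87 and 10.4 CPM in SP, against 0, 0, 0 and 0.680 CPM in NSP (adjusted p = 0.174). Both were called higher when SP 1 was left out (lowest adjusted p of 0.00428 for PROX1 and 0.00698 for LYVE1 over the settings run). PROX1 was also called higher with no filter beyond 1 read and by limma-trend, and RELN, a further gene of the list, without SP 2 (adjusted p = 0.0109). The whole list summed to 14.1 to 40.8 CPM in SP and 7.01 to 12.6 CPM in NSP.

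**Figure D4:**
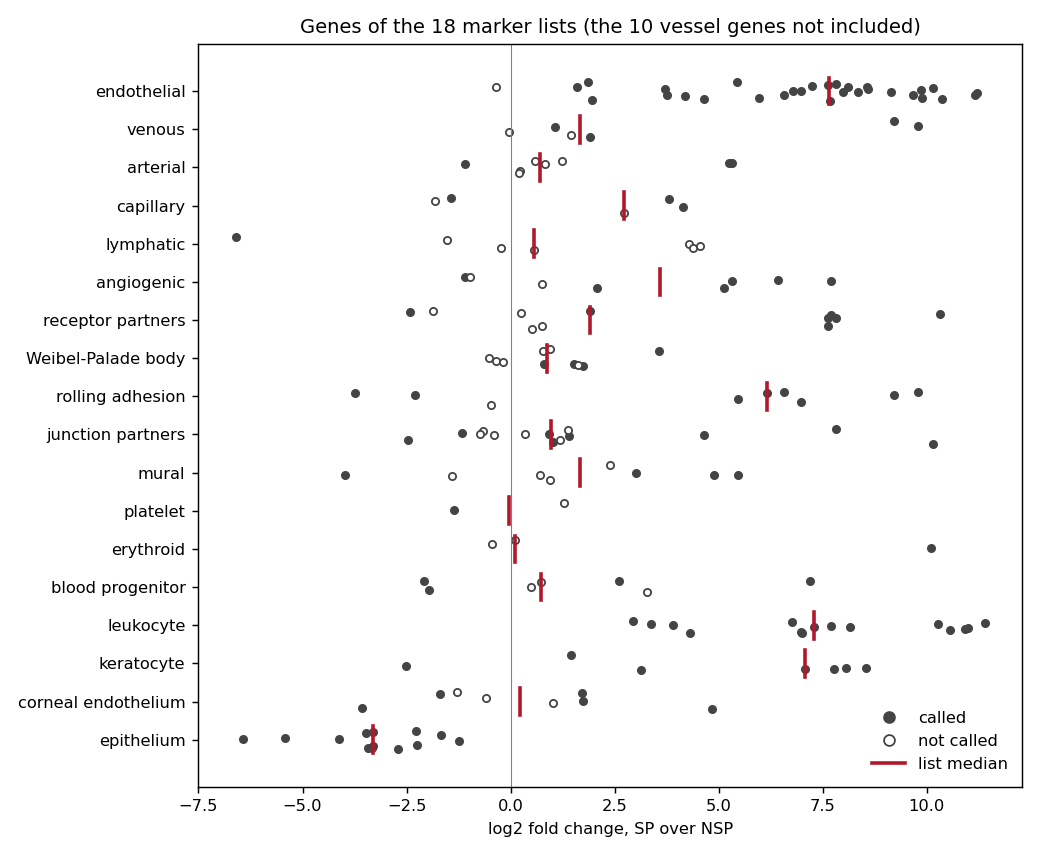
Log2 change of SP over NSP by limma-voom for each tested gene of the 18 lists, none of which holds any of the 10 vessel genes; filled points passed an adjusted p of 0.05, open points did not, and red bars are list medians. The endothelial (7.65), leukocyte (7.30), keratocyte (7.08) and rolling adhesion (6.16) medians lie far to the right, and the epithelial median (-3.31) to the left.

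Around KDR and TEK, the genes of their ligands and partners moved in both directions. Of 11 tested, 6 rose and 1 fell (median log2 change 1.90). The fall was that of VEGFA, the main ligand of KDR, at 18.01, 15.3, 19 and 44.3 CPM in SP, against 73.2, 168, 97.8 and 138.9 CPM in NSP (log2 change -2.41 ± 0.39, adjusted p = 0.00137). The receptor KDR and its ligand were thus abundant in opposite groups. VEGFC, a ligand of the lymphatic VEGF receptor and of KDR, was at 1.40, 2.38, 16.0 and 9.999 CPM in SP with no NSP read, at least 204-fold higher. TIE1, the orphan partner of TEK, was at 40.7, 169.6, 136.8 and 386 CPM in SP, against 0.362, 1.16, 0.851 and 0.583 CPM in NSP (log2 change 7.62 ± 1.44, adjusted p = 0.0032). SH2D2A, an adaptor of KDR and of T cell signalling, had a log2 change of 10.33 ± 1.79 (adjusted p = 0.00204). ESM1, a secreted tip cell proteoglycan gene that also stands in the angiogenic list, had 1 NSP read (ratio 587, 104.9 to 23233). FIGF, which encodes VEGF-D, and PGF had log2 changes of 0.25 ± 0.42 (adjusted p = 0.686) and 0.76 ± 0.46 (adjusted p = 0.24), and VEGFB had no usable entry.

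Of 8 measured angiogenic genes 5 rose and 1 fell (median 3.59). Besides ESM1 and DLL4, the chemokine receptor CXCR4, of tip cells and leukocytes, was at 361.8, 519.6, 917.4 and 233.9 CPM in SP, against 5.06, 5.80, 2.95 and 8.02 CPM in NSP (log2 change 6.43 ± 0.59, adjusted p = 0.000128). CXCR4 was highest in SP 3 and lowest in SP 4, the order of the leukocyte sum and not that of the vessel genes. NID2, a basement membrane nidogen gene, had a log2 change of 5.12 ± 1.36 (adjusted p = 0.0164; 0.0502 without NSP 1). The fifth rise was PDGFB, which lost its call in 9 settings, both other scalings included (adjusted p up to 0.137). The fall was that of UNC5B, and the list had no fall without SP 1, without SP 2 or without NSP 2. It had 3 rises without NSP 1, and 4 rises and 2 falls without SP 4 and with both other scalings. APLN and ANGPT2 had no usable entry.

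Of 10 tested partners of VWF and SELP in the Weibel-Palade body, 4 rose and 0 fell (median log2 change 0.87), and without SP 4 the count was 3 and 1, the fall being VAMP8, a vesicle SNARE gene (adjusted p = 0.0392). The 4 were RAB27A, a GTPase of granule docking (1.53 ± 0.32, adjusted p = 0.00509), MYRIP, its effector (3.56 ± 0.74, adjusted p = 0.00521), ECE1, the endothelin-converting enzyme (1.73 ± 0.42, adjusted p = 0.0116), and the granule tetraspanin CD63 (0.80 ± 0.22, adjusted p = 0.019; up to 0.0616 in 4 settings that lost the call). All of these genes are active in other cells too. EDN1, the endothelin precursor, was at 173.4, 338.3, 190.1 and 371.5 CPM in SP, against 449.8, 324.4, 194.7 and 372.5 CPM in NSP (adjusted p = 0.486), and PLAT had no usable entry.

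Of 9 tested genes for leukocyte rolling and adhesion 6 rose and 2 fell (median log2 change 6.16). Beside VCAM1 and SELE, the rises included the junctional adhesion molecule JAM2 (6.57 ± 0.93, adjusted p = 0.000711), ICAM2 (6.99 ± 1.17, adjusted p = 0.00169) and the sialomucin PODXL, a relative of CD34 (6.16 ± 1.42, adjusted p = 0.00854). The chemokine genes CX3CL1 (-3.74 ± 0.40, adjusted p = 0.000212) and CXCL8 (-2.30 ± 0.53, adjusted p = 0.00866) fell, while another, CCL2, rose (5.46 ± 1.27, adjusted p = 0.00916). CX3CL1 was at 17.7, 17.5, 22.4 and 71.3 CPM in SP, against 254.9, 388.9, 372.3 and 373.7 CPM in NSP. SELPLG, the ligand of P-selectin on leukocytes, and MADCAM1 had no usable entry.

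Among 14 partners of CDH5 and PECAM1 at junctions 6 rose and 2 fell (median log2 change 0.97), where 17.5% and 13.3% of all tested genes were called higher and lower. Of these rises, ESAM, PTPRB and ARHGEF15 were already counted in the endothelial list, and PTPRB also among the receptor partners. The rises with the smallest p were PTPN6, a phosphatase that binds PECAM1 and is abundant in blood cells (1.40 ± 0.24, adjusted p = 0.00201), the adhesion molecule ESAM (4.64 ± 0.85, adjusted p = 0.00277), PTPRB, the phosphatase of VE-cadherin and TEK (7.82 ± 1.71, adjusted p = 0.00655), and ARHGEF15. ARHGEF15, an endothelial exchange factor gene, had 3 NSP reads (ratio 1937, 662.4 to 9396) and lost its call without NSP 2 or NSP 3 (adjusted p up to 0.0568). The catenin genes JUP (-2.47 ± 0.49, adjusted p = 0.00386) and CTNND1 (-1.17 ± 0.28, adjusted p = 0.0096), which epithelial cadherins use as well, fell. Of the remaining rises, TJP1 lost its call in 11 settings and CCM2 without NSP 1 or NSP 2, and the list had 3 rises without NSP 2 and 4 without NSP 1 or NSP 3. HEG1 was called higher without SP 1 and by limma-trend. CTNNA1 (-0.66 ± 0.33, adjusted p = 0.156; called lower without SP 4, 0.0369) and CTNNB1 (0.34 ± 0.25, adjusted p = 0.342) were not called.

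Blood cells and perivascular cells share some of the 10 genes, and their own markers were read beside them. Of 9 platelet genes with an entry, PPBP, GP1BA, TREML1 and CLEC1B had no read in any SP library. The platelet list summed to 5.82 to 21.9 CPM in SP and 10.3 to 12.4 CPM in NSP. Of the 2 tested genes (median log2 change -0.03) 0 rose and 1 fell, the integrin gene ITGA2B (-1.35 ± 0.41, adjusted p = 0.0297; not called in 4 settings), and ITGB3, not tested, averaged 2.35 CPM in SP and 0.173 CPM in NSP. GP9, a platelet glycoprotein gene, was not called, at 4.63 CPM on average in SP against 1.40 CPM in NSP (log2 change 1.28 ± 0.91, adjusted p = 0.316). Without SP 1 the count was 1 higher and 0 lower of 3 tested, with ITGB3 called higher (4.00 ± 1.12, adjusted p = 0.0228) and a list median of 1.10, and over all settings the median ranged from -0.57 to 1.69. The part of platelets in VWF and SELP was not tested. Of red cell genes, SLC4A1, the band 3 anion exchanger, had no read in SP, and GYPC, a glycophorin gene that many cell types use, was the only 1 of 3 tested to rise (10.11 ± 1.26, adjusted p = 0.000392; list median 0.11). The globin gene HBB2 was at 98.2 CPM in SP 1 and had no read in SP 2 to 4.

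The measured genes of mural cells, the pericytes and smooth muscle around vessels, were low. Their list summed to 43.7 to 125.5 CPM in SP and 22.1 to 74.3 CPM in NSP. MYH11 alone gave 63.7, 30.8, 14.2 and 37.6 CPM in NSP 1 to 4, most of each NSP sum, against 6.67 to 18.5 CPM in SP. TAGLN gave 92.8 CPM in SP 4, most of the highest SP sum. Of 8 tested genes (median log2 change 1.67) 3 rose, the pericyte receptor PDGFRB (5.46 ± 1.06, adjusted p = 0.00364), ABCC9 (4.90 ± 1.37, adjusted p = 0.0211) and TAGLN (3.01 ± 0.92, adjusted p = 0.0309), and RGS5, a pericyte gene, fell (-3.98 ± 1.13, adjusted p = 0.0224). The calls of ABCC9 and RGS5 were each lost in 3 settings and that of TAGLN in 6, so that 1 gene rose without NSP 2, without NSP 3 or without NSP 4. PDGFRB was at 2.37, 1.45, 3.68 and 5.07 CPM in SP, and ACTA2 was not called (2.38 ± 1.01, adjusted p = 0.1).

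Of 7 blood progenitor genes, a cell type that shares CD34, 2 rose and 2 fell (median log2 change 0.74; without SP 4, 3 rose, MYB among them). KIT, the stem cell factor receptor, was at 466.7, 309.8, 281.3 and 200.9 CPM in SP, against 46.9, 45.1, 58.6 and 47.7 CPM in NSP (2.61 ± 0.28, adjusted p = 0.000214). KIT was highest in SP 1, where CD34 was lowest. GFI1 rose (7.19 ± 1.38, adjusted p = 0.00338), and HLF (-2.07 ± 0.35, adjusted p = 0.00175) and MEIS1 (-1.97 ± 0.46, adjusted p = 0.0096) fell. FLT3 had no usable entry, and MECOM was not called (0.74 ± 0.42, adjusted p = 0.214).

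Leukocyte genes were higher in SP as well. All 15 tested genes of the list rose, with a median log2 change of 7.30 (5.66 by limma-trend), or 7.60 with the 2 genes that had no NSP read at their bound. LAPTM5, a lysosomal protein gene of blood cells, was at 797.2, 1250, 1990 and 668.9 CPM in SP, against 7.004, 5.61, 9.36 and 14.5 CPM in NSP (6.97 ± 0.47, adjusted p = 5.6e-05). Within SP, 11 of the 15 were highest in SP 3, whereas 9 of the 10 vessel genes and 25 of 30 endothelial list genes were highest in SP 4. PECAM1 is made by both cell types, and the part of leukocytes in its level was not tested. The 13 epithelial genes all fell in SP (median -3.31), also without SP 1, and 11 of them fell without NSP 4 (CDH1 and PERP lost their calls).

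**Figure D5:**
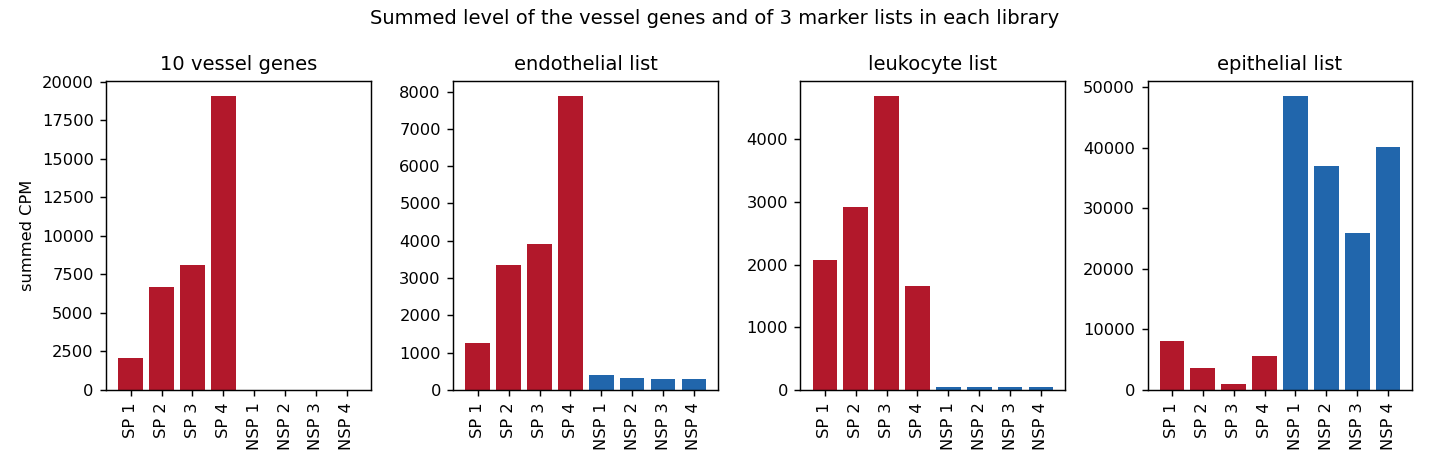
Summed CPM in each library of the 10 vessel genes, the endothelial list, the leukocyte list and the epithelial list, with SP bars in red left of NSP bars in blue; each panel has its own scale starting at 0. The vessel genes reach 19090 CPM in SP 4, while the leukocyte sum is highest in SP 3 (4699 CPM).

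Corneal endothelium, the cell layer behind the cornea, shares a name but not a lineage with vessel endothelium. Of its 8 tested genes (median log2 change 0.21) 3 rose and 2 fell (2 and 2 without SP 4; COL8A1 lost its call in 8 settings). The rises included the transporter gene SLC4A11 (1.73 ± 0.31, adjusted p = 0.00247) and COL8A1 (1.72 ± 0.56, adjusted p = 0.04; not called in 8 settings), and the falls included the carbonic anhydrase gene CA12 (-3.58 ± 0.58, adjusted p = 0.00149). Of 7 stromal keratocyte genes, whose cells can carry AQP1 and CD34, 6 rose and 1 fell (median log2 change 7.08, or 3.46 by limma-trend and 5.10 with no filter beyond 1 read). COL1A1, the first of them by p, was at 44.3, 55.8, 85.2 and 100.6 CPM in SP, against 0.904, 0.046, 0.501 and 0.097 CPM in NSP (8.05 ± 1.02, adjusted p = 0.000418), and ALDH1A1 fell (-2.51 ± 0.55, adjusted p = 0.007). KERA, a further gene of the list, was not tested, with 3 reads in SP 2 and none in any other library. The keratocyte list summed to 252.2 to 420.8 CPM in SP and 302.3 to 724.6 CPM in NSP. ALDH1A1 alone gave 361.7, 265.3, 680.1 and 343 CPM in NSP 1 to 4, most of each NSP sum, against 30.2 to 145.4 CPM in SP. The part of keratocytes in AQP1 and CD34 was not tested.

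The genes whose pattern over the 4 SP libraries was most like the members were sought among 6138 named genes with at least 10 CPM in SP. The measure was the root mean square difference of centred log2(CPM + 0.5) from the members' mean pattern, which stood at -1.73, 0.15, 0.36 and 1.22 in SP 1 to 4. The closest were IRGM (0.031), the endothelial gene ECSCR (0.041), FBLN2, CACHD1, TMEM231, MARVELD1, NGFR, MSRB3, CLU and DACH2 (0.132), against a median of 1.126 over all candidates. ECSCR, an endothelial surface protein gene, was the only one of them on any of the lists. The members themselves lay between 0.169 (ACKR1) and 0.759 (EMCN) from their own mean. Of the 10 nearest genes 5 were called higher in SP, 1 was called lower and 4 were not called, where 17.5% and 13.3% of all tested genes were called higher and lower. FBLN2 averaged 160.5 CPM in SP and 8.78 CPM in NSP, whereas NGFR averaged 25.7 CPM in SP, below 90.3 CPM in NSP (log2 change -2.13 ± 0.45, adjusted p = 0.00559).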

How the data were processed

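Per the labels, the 8 libraries (4 SP, 4 NSP) hold total RNA read on an Ion Proton. Not given in the sources used here: aligner, build, annotation. The authors deposited 1 fixed-width table (163 fields of 8 characters in 6 stacked blocks), read here by character position. The deposited field taken as the exon read count holds whole numbers, and their group means came within 0.05 of the deposited means. A further field was taken as exon length, and 143 other per-library fields were not used. Headers name the group but not the sample. Names are cut at 8 characters: 10916 of 20922 entries have a usable name (313 of 8 characters matched 1 RefSeq symbol of assembly mOryCun1.1), and 10006 stayed in totals and tests unnamed. No pair of libraries of a group agreed within sampling noise (chi-square per degree of freedom at least 53.6 over genes with 20 reads or more).

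TMM factors (trims of 0.3 and 0.05) were computed here. Genes with a CPM of at least 0.508 in 4 or more libraries and 15 reads in all were tested with limma-voom (limma 3.58.1, R 4.3.3; offset 0.5; group only), two-sided, with Benjamini-Hochberg adjustment over all 10004 genes. The procedure was tested on simulated counts. Python 3.11.15, pandas 2.3.3, NumPy 2.4.6, SciPy 1.17.1 and matplotlib 3.10.9 did the rest.

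The members and the 18 lists (268 genes, 183 with an entry, 157 tested, none of them members) were chosen with earlier results of these data known. The lists cover endothelial, venous, arterial, capillary, lymphatic and angiogenic genes, receptor partners, Weibel-Palade body, rolling and adhesion, junction partners, mural, platelet, red cell, blood progenitor, leukocyte, keratocyte, corneal endothelial and epithelial genes. Older symbols stood in for 4 of them. Some genes stand in several lists and are counted in each, among them TIE1, PTPRB, ESAM, ARHGEF15, JAM2 and ICAM2. Named are the 10 members, per list and direction up to 4 called genes by smallest p, up to 3 uncalled or unmeasured genes in list order, and the 10 genes nearest in pattern; other genes named were chosen after their values were seen. Some genes that this rule names are not reported here. A fold against a group with no read is a bound against 3 reads over the group. Other settings tried were median-ratio and upper-quartile scaling, 2 other filters, limma-trend, each library left out in turn, and pseudocounts of 0.1 and 2.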

Additional observations from a re-analysis of the deposited data

Results flagged for a closer look

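In 7 of the 20 groups of 4 libraries examined (10 genes in SP and in NSP), 1 NSP library lay far from the other 3 by Dixon's ratio at its 95% critical value. No SP group was among them. In 5 of the 7 the other 3 NSP libraries had no read, so that any number of reads in 1 library would pass this value. These were ACKR1 at 0.146 CPM in NSP 4, TEK at 0.0928 CPM in NSP 2, CD34 at 0.601 CPM in NSP 3, CDH5 at 0.0972 CPM in NSP 4 and KDR at 0.723 CPM in NSP 1. The value flags about 1 in 20 groups by chance for normally spread levels. That rate does not hold for so few reads, so the number of flags cannot be set against it. VWF stood at 1.07 CPM in NSP 2, against 0.136 CPM or no read in the others. SELP was low in NSP 2, at 0.0464 CPM, against 0.136 to 0.150 CPM in the others, which is 1 read against 3 in each. The libraries concerned differ from gene to gene, and no NSP library was high for more than 2 of the 10 genes among these.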

How the results depend on the processing

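No paired analysis was possible because the table's columns carry no replicate number. Over the alternatives run, the genes called ranged from 2263 to 3848 with a library left out (3084 with all), endothelial list calls from 23 to 28 (29 with all), other list calls from 69 to 83 (81 with all), and the members' median log2 ratio from 12.10 to 12.94 (12.65 with all). With other scalings, filters and limma-trend these counts stayed within 1.5 times, and no called gene reversed its direction. By limma-trend the median log2 change was 5.77 for the endothelial list, 5.66 for leukocytes and 3.46 for keratocytes (7.65, 7.30 and 7.08 by limma-voom). Scaling moved the median of all genes by -0.107 (median-ratio) and -0.185 (upper-quartile) on the log2 scale. The calls split into 1754 higher and 1330 lower by TMM, 1405 higher and 1650 lower by upper-quartile factors. Of 157 list genes, 23 lost a call and 15 gained one in some setting. The nearest genes shared 6 of 10 at a pseudocount of 2; the cause was not tested. The log2 ratio of VWF was 15.92 without NSP 2, of EMCN 9.09 without NSP 3, of TEK at least 11.34 without NSP 2 and of KDR at least 10.11 without NSP 1. NSP levels of the members rest on 2 to 61 reads each, so ratios above 1000 are known no better than to their counting intervals. Those intervals leave out the spread among libraries, and leaving out 1 NSP library can move a ratio beyond them, as for VWF.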
